A study of Homo sapiens with 5 samples.

Results

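Amino acid transporter genes were compared between D54 human glioma cells carrying a control shRNA and the same line with TIP-1 silenced by shRNA. The genes were taken by name: those of the SLC1, SLC6, SLC7, SLC36, SLC38 and SLC43 carrier families, together with SLC3A1 and SLC3A2, each represented by its brightest array row annotated to 1 gene symbol. This gave 59 genes of the 18417 measured. They include SLC7A6OS, which shares a name with its neighbour SLC7A6 but encodes a factor for nuclear import of RNA polymerase II, and the SLC6 carriers of monoamines and creatine. SLC43A3 was set aside because its row carried a second symbol.

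D54 is an established glioma cell line, and both groups were made from it by transfection. The control shRNA group had 2 arrays from independent clones, called control 1 and control 2. The TIP-1 shRNA group had 3 arrays, each from cells with a different hairpin against TIP-1, called shRNA 1, shRNA 2 and shRNA 3. How the hairpins were driven and selected is not given in the sources used here. TIP-1 is a small protein with a single PDZ domain, which binds the ends of other proteins, and TAX1BP3 is its gene.

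Cells take up amino acids through carriers that differ in substrate and driving force. The light chains of the SLC7 family work only when paired with a heavy chain, and the pair of SLC7A11 with SLC3A2, called system xc-, imports cystine in exchange for glutamate. Cystine feeds the synthesis of glutathione, and glioma cells are known for releasing glutamate through this exchanger.

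Each array gave 33297 log2 signals with medians between 7.88 and 7.98, and correlations between arrays were at least 0.991. The row of TAX1BP3 (shared with the symbol of a read-through RNA) read 12.05 and 12.10 in the controls, then 9.81, 9.61 and 9.55 in shRNAs 1, 2 and 3. Its log2 difference was -2.42 (SE 0.10, limma adjusted p = 0.011). That call was lost without control 1 (limma adjusted p = 0.386), without control 2 (0.387) or without shRNA 2 (0.129). Of markers of the glioma and astrocyte lineage, VIM, CD44 and EGFR read 13.98, 13.76 and 11.26 on average in the controls. SOX9 read 10.39 and 10.40 there and 10.60, 10.63 and 10.74 in shRNAs 1, 2 and 3, a difference of 0.26 (SE 0.08, limma adjusted p = 0.707) with all TIP-1 shRNA arrays above both controls. SOX9 was the 1 lineage marker at an unadjusted p under 0.05. EGFR differed by -0.13 (SE 0.08, limma adjusted p = 0.724), with all TIP-1 shRNA arrays below both controls. What part either has in the differences of transporters was not tested. GFAP, NES, OLIG2, SOX2, FABP7 and S100B lay between 6.26 and 8.09 on average in the controls. With no detection call given, these could not be called present or absent. Of markers of other cell types, EPCAM of epithelium differed by -0.53 (SE 0.19) and SNAP25 of neurons by -0.28 (SE 0.09). Both were at an unadjusted p under 0.05 (limma adjusted p = 0.707), with all TIP-1 shRNA arrays below both controls. Their control means were 6.75 and 7.64. The other markers of those cell types measured did not reach that level. The epithelial keratin KRT18 read 12.80 on average in the controls, with overlapping groups.

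No transporter gene passed the test over all rows (limma, Benjamini-Hochberg adjusted p under 0.05), where 0.003% of rows were called. The smallest adjusted p among the 59 genes was 0.707. At an unadjusted p under 0.05, 0 were higher and 2 lower with TIP-1 shRNA, SLC7A11 and SLC38A8. Over all genes those shares were 3.08% higher and 2.94% lower, 6.02% in all, so 2 of 59 is near the background. These counts changed with the scaling of the arrays. After quantile normalization 0 transporters were higher and 1 lower, where 608 and 378 of all 18417 genes were. After median centring 4 were higher and 1 lower, where 1099 and 226 of all genes were. A difference of at least 0.3 log2 units in either direction was seen for 1 of the 59, SLC7A11, against 5.92% of all genes. Because the TIP-1 shRNA arrays differ in hairpin and the controls in clone, the p-values measure the spread between such lines. With 2 arrays against 3, exact permutation of 1 gene's values cannot give a p below 0.1 and was not used.

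SLC7A11, the cystine and glutamate exchanger, had the largest difference among the transporters. It read 9.91 and 10.23 in controls 1 and 2 and 9.05, 9.39 and 8.44 in shRNAs 1, 2 and 3. All 3 TIP-1 shRNA arrays were below both controls, and the gap between the groups, 0.52 log2 units, was larger than the 0.32 between the controls. It was smaller than the span of the TIP-1 shRNA arrays, which ran from 8.44 to 9.39. Their SD was 0.48, against 0.23 in the controls. In RNA from a whole dish, fewer cells with a transcript and less of it per cell cannot be told apart. Averaged by group the signal was 2.15-fold lower, a log2 difference of -1.11 with SE 0.27 and a 95% interval from -1.77 to -0.44, which did not pass the test (limma adjusted p = 0.707). It ranked 27 of 18417 genes by size but 114 by unadjusted p. The transporter set was chosen with earlier results of these data known, so these ranks are a description. Against the control mean the signal was 2.02-fold lower in shRNA 1, 1.60-fold lower in shRNA 2 and 3.08-fold lower in shRNA 3. The difference came to -0.85 without shRNA 3 and -1.32 without shRNA 2, and its adjusted p lay between 0.119 and 0.980 over all alternatives run.

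The partner of SLC7A11 did not show such a difference. SLC3A2, the heavy chain CD98 shared by most light chains, read 11.69 and 11.83 in the controls, against 11.85, 11.87 and 11.77 in shRNAs 1, 2 and 3. The groups overlapped. Its log2 difference was 0.07 (SE 0.09, 95% interval -0.15 to 0.29, limma adjusted p = 0.850), so a difference as large as that estimated for SLC7A11 lies outside its interval. After median centring all 3 TIP-1 shRNA arrays of SLC3A2 lay above both controls, with a difference of 0.13. SLC3A1, the heavy chain of the renal cystine carrier, was at 6.61 and 6.70 in the controls, against 6.50, 6.55 and 6.69 with TIP-1 shRNA, again overlapping.

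The other 7 light chains differed by at most 0.22 log2 units. SLC7A5, the carrier LAT1 for leucine and other large neutral amino acids, read 11.64 and 11.72 in the controls. With shRNAs 1, 2 and 3 it read 11.95, 11.84 and 11.45, above both controls in the first 2 and below both in shRNA 3. Its mean difference was 0.07 (SE 0.16, 95% interval -0.32 to 0.45). SLC7A6, which exchanges cationic for neutral amino acids, was at 10.89 and 11.03 in the controls, against 10.96, 10.94 and 11.02 with TIP-1 shRNA, a difference of 0.02 (SE 0.09). SLC7A8, the carrier LAT2 for neutral amino acids, differed by -0.10 (SE 0.10). The remaining 4, among them SLC7A9, which pairs with SLC3A1, lay between -0.22 and -0.01. Of the 8 light chains, 3 had all TIP-1 shRNA arrays below both controls, SLC7A11, SLC7A7 and SLC7A9, and none had them above. Of all genes, 14.1% lay below in this way and 12.5% above. After quantile normalization or median centring only 1 of the 8 was so placed.

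**Figure D1:**
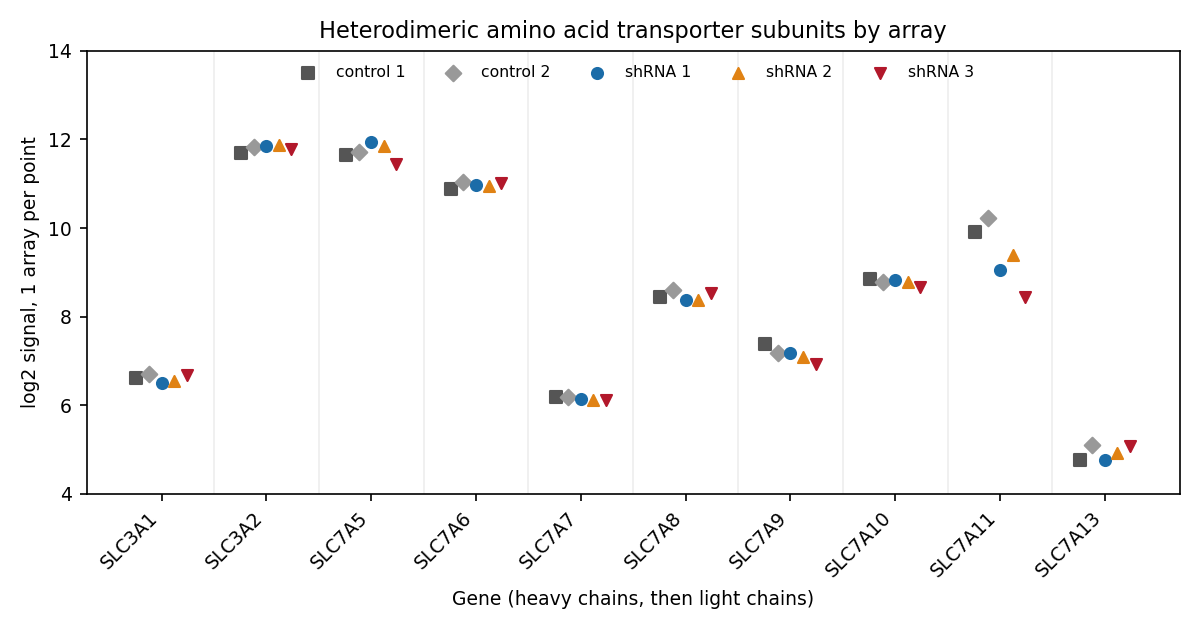
Log2 signal (vertical axis) of the 2 heavy chain and 8 light chain genes on each of the 5 arrays, 1 point per array, with no error bars because each point is a single array. SLC7A11 is the gene whose control points (9.91 and 10.23) stand clear above the TIP-1 shRNA points (8.44 to 9.39), while those of SLC3A2 overlap. Signals of different genes come from different probes and are not compared.

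The cationic amino acid transporters SLC7A1 and SLC7A2 carry arginine and lysine without a heavy chain. SLC7A1 read 11.24 and 11.17 in the controls, against 11.39, 11.23 and 11.62 in shRNAs 1, 2 and 3. The array of shRNA 2 lay between the controls and the other 2 lay above them. The difference was 0.21 (SE 0.13, 95% interval -0.11 to 0.53), the largest on the higher side among all 59 genes. SLC7A2 differed by 0.13 (SE 0.09), with 6.63 and 6.49 in the controls, against 6.76, 6.70 and 6.60 with TIP-1 shRNA. The other 3 cationic carriers, SLC7A3, SLC7A4 and SLC7A14, lay between -0.13 and 0.04.

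The SLC1 family holds the sodium-driven glutamate transporters and a pair of neutral amino acid exchangers. The 5 glutamate transporters all had negative differences, with a median of -0.14, but all 5 were dim rows, with a mean signal under the median row level of 7.935, a class in which 34.5% of genes were higher. After quantile normalization, as after median centring, 3 of the 5 were lower, where 51% and 47.8% of dim genes were. SLC1A3, the glial glutamate transporter GLAST, read 6.57 and 6.57 in the controls, against 6.43, 6.44 and 6.14 in shRNAs 1, 2 and 3. All 3 TIP-1 shRNA arrays were below the controls, shRNA 3 most of all. The difference was -0.23 (SE 0.12, 95% interval -0.52 to 0.05, limma adjusted p = 0.713). SLC1A2, the other main glial glutamate transporter, was at 5.93 and 6.19 in the controls, against 6.07, 6.00 and 6.01 with TIP-1 shRNA, all between the controls. SLC1A1, the neuronal type transporter that also carries cysteine, read 7.22 and 6.77 in the controls, against 6.97, 7.01 and 6.58 with TIP-1 shRNA. Its difference of -0.14 (SE 0.19) was smaller than the gap between the controls. The other 2, SLC1A6 and SLC1A7, differed by -0.05 and -0.15.

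The neutral exchangers had differences of opposite sign, neither past the test. SLC1A5, the glutamine carrier ASCT2, read 11.58 and 11.74 in the controls, against 11.69, 11.64 and 11.35 in shRNAs 1, 2 and 3. Only shRNA 3 was outside the range of the controls, and the difference was -0.10 (SE 0.13, 95% interval -0.42 to 0.21). A dimmer second row of SLC1A5 gave -0.15 (SE 0.15). SLC1A4, the carrier ASCT1 for alanine, serine and cysteine, read 8.68 and 8.65 in the controls, against 8.90, 8.77 and 8.82 with TIP-1 shRNA. All 3 were above both controls, by a mean of 0.16 (SE 0.08, 95% interval -0.04 to 0.37, limma adjusted p = 0.713).

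Among the sodium-coupled neutral amino acid transporters SLC38A1 to SLC38A11, 6 of 11 had positive and 5 negative differences, with a median of 0.04. SLC38A1, a glutamine carrier, read 12.17 and 12.40 in the controls, against 12.52, 12.50 and 12.34 in shRNAs 1, 2 and 3. The groups overlapped through shRNA 3, and the difference was 0.17 (SE 0.11). SLC38A2, the carrier that cells raise when amino acids run short, read 12.21 and 12.24 in the controls, against 12.35, 12.21 and 12.23 with TIP-1 shRNA. Its difference was 0.04 (SE 0.09, 95% interval -0.17 to 0.25).

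The other SLC38 genes held the second smallest p of the whole set. SLC38A8, a glutamine transporter known from the retina, read 7.88 and 8.04 in the controls, against 7.81, 7.61 and 7.59 in shRNAs 1, 2 and 3. All 3 TIP-1 shRNA arrays were below both controls, shRNA 1 by the smallest margin. The difference was -0.28 (SE 0.11, 95% interval -0.55 to -0.02, limma adjusted p = 0.707). Its row was dim, with a mean of 7.79 over the arrays. SLC38A3, a glutamine carrier of liver and astrocytes, was lower by a mean log2 difference of -0.17 (SE 0.09), with all TIP-1 shRNA arrays below both controls. SLC38A5, which carries glutamine and glycine, differed by -0.15 (SE 0.09), also with separate groups. After quantile normalization it differed by -0.079 and after median centring by -0.085, with overlapping groups in each. The 5 other SLC38 genes not described here or with the lysosomal carriers lay between -0.18 and 0.16.

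Lysosomal carriers let amino acids back into the cytosol. SLC38A9, which reports lysosomal arginine to mTORC1, read 8.85 and 9.22 in the controls, against 9.02, 9.23 and 9.44 in shRNAs 1, 2 and 3. The difference was 0.19 (SE 0.16), and the controls themselves differed by 0.38. SLC36A1, a proton-coupled carrier of lysosomes, read 10.20 and 10.46 in the controls, against 10.62, 10.51 and 10.32 with TIP-1 shRNA, a difference of 0.15 (SE 0.13) with overlapping groups. The other 3 SLC36 genes lay between -0.01 and 0.01. SLC38A12, a family member formerly called TMEM104, was at 10.64 and 10.75 in the controls, against 10.88, 10.92 and 10.83 with TIP-1 shRNA. All 3 arrays were above both controls, by a mean of 0.19 (SE 0.09, 95% interval -0.02 to 0.39). SLC7A6OS, the gene that is no transporter, differed by -0.01.

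The facilitated carriers SLC43A1 and SLC43A2 move leucine and other large neutral amino acids. SLC43A2 read 10.35 and 10.31 in the controls, against 10.63, 10.52 and 10.46 in shRNAs 1, 2 and 3. All 3 TIP-1 shRNA arrays were above both controls, with a difference of 0.21 (SE 0.09, 95% interval -0.01 to 0.42, limma adjusted p = 0.707). SLC43A1 read 8.70 and 9.12 in the controls, against 9.17, 9.24 and 8.87 with TIP-1 shRNA. The groups overlapped, and the difference of 0.19 (SE 0.17) was smaller than the 0.41 between the controls. The row annotated to both SLC43A3 and PRG2 differed by 0.05 (SE 0.10).

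The SLC6 family holds carriers of neurotransmitters, osmolytes and amino acids. Of the 15 measured apart from the 3 monoamine carriers, 13 had negative differences, or 86.7%, with a median of -0.14. Of those 3 monoamine carriers, 2 were higher and 1 lower. As 12 of the 15 were dim rows, the nearer reference is dim genes, of which 65.5% were lower, with a median of -0.05. Quantile normalization left 12 lower, or 80% against 51% of dim genes, and median centring 10, or 66.7% against 47.8%. Medians were -0.07 in each, beside -0.003 and 0.007 over dim genes. SLC6A9, the glycine transporter GlyT1, read 8.62 and 8.74 in the controls, against 8.31, 8.43 and 8.58 in shRNAs 1, 2 and 3. All 3 were below both controls, by a mean of -0.24 (SE 0.11, 95% interval -0.51 to 0.03, limma adjusted p = 0.707). SLC6A7, a proline carrier of brain, differed by -0.19 (SE 0.08). The GABA and taurine carrier SLC6A13 differed by -0.22 (SE 0.09) and the orphan carrier SLC6A16 by -0.22 (SE 0.10). Each of these 3 had all TIP-1 shRNA arrays below both controls.

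The taurine carrier SLC6A6 read 9.97 and 10.19 in the controls, against 10.04, 10.06 and 9.95 with TIP-1 shRNA, overlapping. SLC6A14, a broad carrier of neutral and cationic amino acids, was near the bottom of the scale on every array, at 4.80 to 5.04, and differed by -0.01 (SE 0.11). The creatine carrier SLC6A8 read 10.42 and 10.45 in the controls, against 10.69, 10.58 and 10.54 with TIP-1 shRNA. All 3 were above both controls, by a mean of 0.17 (SE 0.09). SLC6A8 has near-identical pseudogene copies, and a pair of rows that carry its symbol beside those copies gave 0.35 (SE 0.16) and 0.35 (SE 0.16) with overlapping groups, so its signal is uncertain. Of the monoamine carriers, the dopamine transporter SLC6A3 differed by -0.21 (SE 0.09), with all TIP-1 shRNA arrays below both controls. The other 2 monoamine carriers, SLC6A2 and SLC6A4, differed by 0.07 and 0.12. The SLC6 genes not described singly lay between -0.20 and 0.01.

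Over the 59 genes, 6 had all 3 TIP-1 shRNA arrays above both controls and 15 had all below. Among all genes these shares were 12.5% and 14.1%, or 26.5% in all, against 10.2% and 25.4% of the transporters. Those above were SLC43A2, SLC1A4, SLC38A12, SLC38A10, SLC6A8 and SLC6A4. Of the 15 below, 12 were dim rows. Of 33 transporters below the median row level, 12 lay below both controls in all TIP-1 shRNA arrays, or 36.4%, against 20.5% of all dim genes. A negative difference was seen for 28 of the 33, or 84.8%, against 65.5% of dim genes. Of the same 33, 1 lay above, against 6.75% of dim genes. Of the 26 at or above that level, 3 lay below, or 11.5%, against 9.87% of bright genes, and 5 lay above, or 19.2%, against 16.2%. The brighter transporters had a median difference of 0.07 and the dim ones of -0.12, against 0.02 and -0.05 over all bright and all dim genes. Those classes were not matched to the transporters by level. The dim transporters had a median signal of 6.92, and in bins of signal from 6 to 8 the median difference over all genes lay between -0.08 and -0.06.

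Dim genes as a whole were also lower more often than higher, and the counts of transporters changed with the scaling of the arrays. Lower quartiles of all rows were 6.45 and 6.44 in the controls, against 6.42, 6.40 and 6.35 with TIP-1 shRNA, and upper quartiles were 9.77 and 9.77 against 9.79, 9.80 and 9.83. The number of transporters with separate groups was 7 above and 9 below after quantile normalization and 11 above and 9 below after median centring, in place of 6 and 15. These were 11.9% and 15.3% of the transporters after quantile normalization, against 13.1% and 11.4% of all genes. After median centring they were 18.6% and 15.3%, against 22% and 7.37%. The share below thus stayed above that of all genes under both. Of the dim transporters, 6 and 7 then lay below, or 18.2% and 21.2%, against 12% and 11.6% of dim genes. The median over the 59 genes was -0.04 as deposited, beside -0.01 over all genes, and -0.01 after quantile normalization and 0.02 after median centring. Of the genes described singly, SLC38A5 lost its separate groups under both rescalings and SLC6A9 after median centring. SLC7A2 gained them under both, and SLC3A2, SLC7A1, SLC38A1 and SLC38A2 after median centring, all with TIP-1 shRNA higher. What part the scaling has in the differences of dim transporters was not tested.

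**Figure D2:**
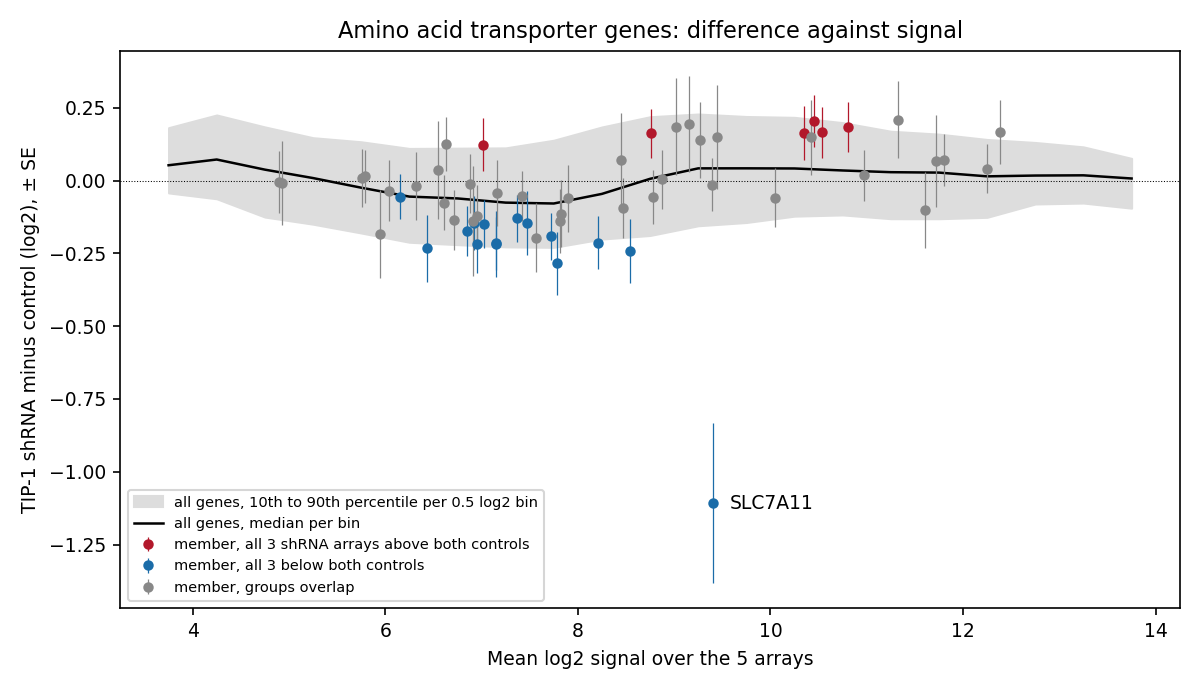
Difference of each of the 59 transporter genes, TIP-1 shRNA minus control in log2 units with limma's SE (vertical axis), against its mean log2 signal over the 5 arrays (horizontal axis), with the median and the 10th to 90th percentile of all genes per bin of signal, for bins of at least 20 genes. SLC7A11 lies at -1.11, and the other 58 lie between -0.28 and 0.21, dim ones mostly below 0. The median of all genes is below 0 in the bins from 5.5 to 8.5 and above 0 in the dimmer and brighter ones.

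The hairpins were then set side by side, each with 1 array and thus without a test. They share both controls, so their values are not independent. At a difference of at least 0.3 log2 units from the control mean, shRNA 1 had 0 transporters higher and 2 lower (SLC7A11 and SLC6A9), where 3.21% and 3.65% of all genes were so placed. For shRNA 2 there were 1 higher (SLC43A1) and 2 lower (SLC7A11 and SLC38A8), against 3.95% and 5.47% of genes. For shRNA 3 there were 5 higher and 10 lower, against 10.7% and 9.29%. SLC7A11 was the single transporter past that size with every hairpin. At 2-fold it was also the single one, lower with shRNA 1 and shRNA 3, where 0.25% and 0.147% of genes were 2-fold lower. With shRNA 2 no transporter was 2-fold lower, where 0.271% of genes were. None was 2-fold higher with any hairpin, where 0.168%, 0.163% and 0.548% of genes were in shRNAs 1, 2 and 3.

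Several transporters had a larger difference in shRNA 3 than with the other hairpins. The 5 past 0.3 on the higher side, SLC38A6, SLC7A1, SLC38A9, SLC38A7 and SLC6A2, are named after their values were seen. SLC38A6 was 0.49 above the control mean in shRNA 3 but -0.12 from it in shRNA 1. SLC7A1 was 0.42 above it in shRNA 3 and 0.19 in shRNA 1, and SLC38A9 0.40 and -0.01. On the lower side, SLC1A3 was at -0.43 in shRNA 3 and at -0.14 and -0.13 in shRNAs 1 and 2, and SLC1A1 at -0.41 against -0.02 and 0.02. SLC7A5 stood at 0.27 and 0.16 in shRNAs 1 and 2 and at -0.23 in shRNA 3.

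Arrays of 1 group also differed from each other. Over the 59 genes, the SD of the differences was 0.168 between the controls, 0.132 between shRNAs 1 and 2, and 0.235 and 0.220 between shRNA 3 and the other 2 of its group. Between a control and a TIP-1 shRNA array it ranged from 0.193 to 0.311, and from 0.164 to 0.249 with SLC7A11 left out. Control 2 read higher than control 1 for 44 of the 59 transporters, or 74.6%, against 57.5% of all genes.

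**Figure D3:**
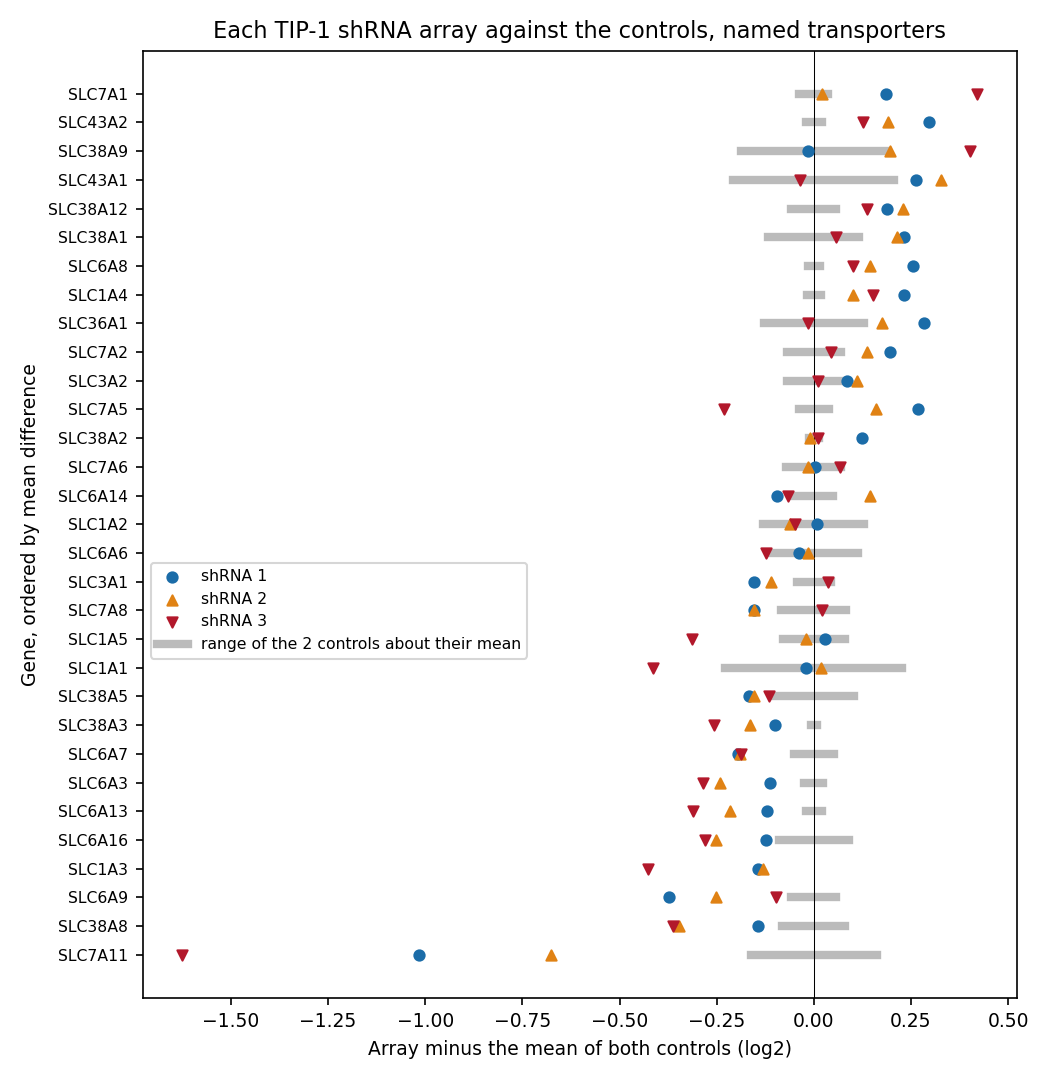
Each TIP-1 shRNA array minus the mean of both controls, in log2 units (horizontal axis), for the 31 transporters named by rule, ordered by mean difference (vertical axis); grey bars show the range of the 2 controls about their mean. The points of SLC7A11 lie at -1.02, -0.68 and -1.62, and the points of the other 30 genes lie within 0.43 of the control mean.

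Genes whose signal followed that of SLC7A11 most closely over the 5 arrays were looked for among 1056 other genes with an SD of at least 0.3 log2 units. The arrays include the group difference, so this is a description with 5 points. Highest was C1orf21 (Pearson r = 0.989), which read 8.86 and 9.20 in the controls, against 8.50, 8.60 and 8.02 in shRNAs 1, 2 and 3. It was followed by the growth factor FGF1 (0.979), the carbonic anhydrase CA12 (0.973), the pyrophosphate-forming enzyme ENPP1 (0.972) and DIPK2A (0.959). Their differences lay between -0.82 for ENPP1 (SE 0.13) and -0.44 for DIPK2A (SE 0.15), each with a limma adjusted p of 0.707. All 5 were lowest in shRNA 3 and highest in control 2, as was SLC7A11, a likeness that choosing them by correlation favours.

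**Figure D4:**
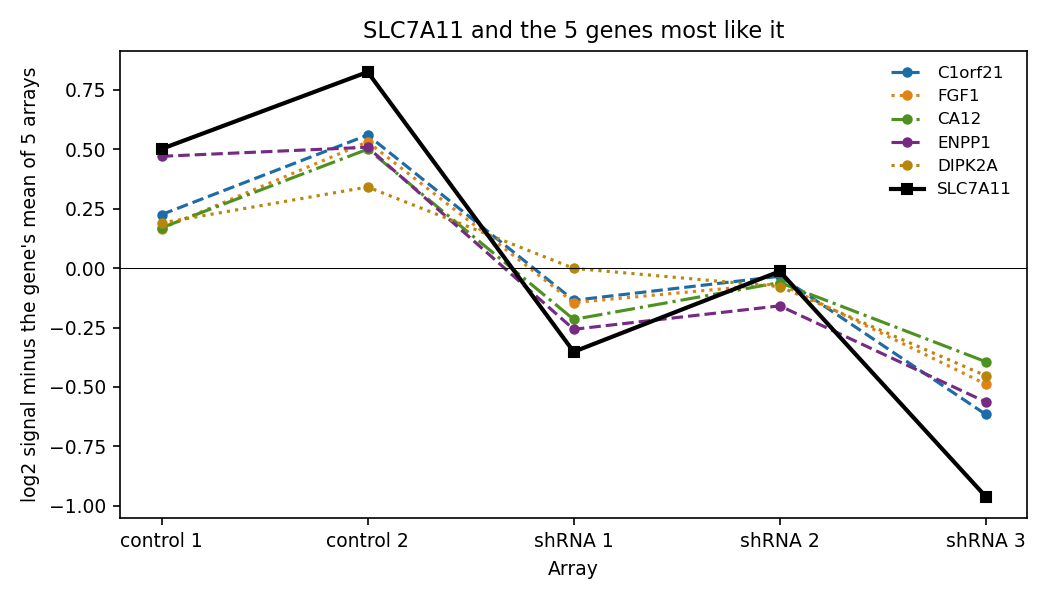
Log2 signal minus the gene's own mean over the 5 arrays (vertical axis) for SLC7A11 and the 5 genes with the highest Pearson correlation to it, by array (horizontal axis); lines join the points of 1 gene and the arrays have no order. All 6 genes lie highest in control 2 and lowest in shRNA 3, a likeness that choosing by correlation favours.

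Cystine taken up by SLC7A11 is reduced to cysteine and built into glutathione. Of 22 genes of cystine use, glutathione and its oxidant-responsive regulation, none passed the test, 8 were higher and 14 lower, and the median was -0.07. As 20 of the 22 were bright rows, the median of 0.02 over bright genes is the nearer reference. There were 4 genes with all TIP-1 shRNA arrays below both controls and 1 with all above. These were 18.2% and 4.55%, against 9.87% and 16.2% of bright genes. After quantile normalization 7 were higher and 15 lower, with a median of -0.037, beside 0.0057 over bright genes. After median centring 10 were higher and 12 lower, with a median of -0.0094, beside 0.08 over bright genes. Quantile normalization left 18.2% below and 4.55% above, against 10.9% and 13.8%, and median centring 9.09% and 13.6%, against 4.6% and 27.1%. At an unadjusted p under 0.05, 0 were higher and 1 lower as deposited. Those counts were 0 and 2 after quantile normalization and 1 and 0 after median centring. GCLC, the catalytic subunit of the enzyme that starts glutathione synthesis, read 9.94 and 10.01 in the controls, against 9.64, 9.68 and 9.77 in shRNAs 1, 2 and 3. All 3 were below both controls, by a mean of -0.28 (SE 0.09, limma adjusted p = 0.707), but unlike SLC7A11 it was lowest in shRNA 1. Its regulatory subunit GCLM differed by -0.09 (SE 0.17). The quinone reductase NQO1 differed by -0.21 (SE 0.09), with separate groups, and the thioredoxin reductase TXNRD1 by -0.23 (SE 0.12), with overlapping ones.

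Other genes of that list went different ways. Heme oxygenase HMOX1 read 11.46 and 11.52 in the controls, 12.35 and 12.38 in shRNAs 1 and 2, and 10.90 in shRNA 3, so the hairpins lay on opposite sides of the controls. CTNS, the exporter of cystine from lysosomes, read 9.71 and 10.01 in the controls, against 10.06, 10.13 and 10.35 with TIP-1 shRNA, a difference of 0.32 (SE 0.13, limma adjusted p = 0.707).

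ATF4 is the transcription factor through which amino acid shortage raises several transporters, SLC7A11 among them. Of 26 genes of this response, none passed, 15 were higher and 11 lower, and the median was 0.03. Of the 26, 24 were bright rows and 57.7% were higher, against 56.1% of bright genes, whose median was 0.02. After quantile normalization 42.3% were lower, against 48.3% of bright genes, and after median centring 23.1%, against 26.9%. CARS1, which charges tRNA with cysteine, read 9.01 and 9.03 in the controls, against 9.29, 9.26 and 9.54 in shRNAs 1, 2 and 3. All 3 were above both controls, with a difference of 0.35 (SE 0.11, limma adjusted p = 0.707), and it was the 1 gene of the list at an unadjusted p under 0.05. The serine synthesis enzyme PSPH differed by 0.41 (SE 0.18), with overlapping groups, and asparagine synthetase ASNS by 0.24 (SE 0.14). ATF4 itself differed by -0.14 (SE 0.10), its target TRIB3 by 0.14 (SE 0.10) and the glutathione-degrading enzyme CHAC1 by -0.07 (SE 0.11).

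Enzymes that make and use glutamine, glutamate and branched-chain amino acids were measured for 12 of 17 listed genes, and the other 5 were not analysed here. None passed, 8 were higher and 4 lower, and the median was 0.03. Of the 12, 10 were bright rows and 66.7% were higher, against 56.1% of bright genes, whose median was 0.02. After quantile normalization 33.3% were lower, against 48.3% of bright genes, and after median centring 25%, against 26.9%. BCAT1, which moves the amino group of leucine, isoleucine and valine to form glutamate in the cytosol, read 8.84 and 9.03 in the controls, against 8.19, 8.28 and 8.17 in shRNAs 1, 2 and 3. All 3 were below both controls and close to each other. The signal was 1.65-fold lower, a difference of -0.72 (SE 0.10, 95% interval -0.95 to -0.49) that did not pass the test (limma adjusted p = 0.561). That adjusted p lay between 0.158 and 0.980 over the alternatives. Its mitochondrial counterpart BCAT2 was placed the other way, at 10.17 and 10.18 in the controls, against 10.39, 10.48 and 10.77 with TIP-1 shRNA, a difference of 0.37 (SE 0.13, limma adjusted p = 0.707). Glutamine synthetase GLUL differed by 0.15 (SE 0.16) and the transaminase GOT1 by 0.13 (SE 0.11). GAD1, which makes GABA from glutamate, differed by 0.27 (SE 0.14).

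Leucine, arginine and other amino acids are reported to mTORC1 through Rag GTPases and their anchor at the lysosome. Of 25 genes of this machinery, none passed, 19 were higher and 6 lower, and the median was 0.06, beside 0.02 over all bright genes. There were 7 genes with all TIP-1 shRNA arrays above both controls and 0 with all below, or 28% against 16.2% of bright genes above. After quantile normalization these were 5 and 1, or 20% and 4% against 13.8% and 10.9% of bright genes, with 16 higher and 9 lower. After median centring they were 10 and 0, or 40% above against 27.1% of bright genes, with 23 higher and 2 lower. LAMTOR5, a subunit of the lysosomal anchor, read 9.25 and 9.37 in the controls, against 9.60, 9.66 and 9.64 with TIP-1 shRNA. The 3 arrays lay close together above both controls, with a difference of 0.32 (SE 0.08, 95% interval 0.11 to 0.52, limma adjusted p = 0.707). LAMTOR3 of the same anchor differed by 0.23 (SE 0.08), the arginine sensor CASTOR1 by 0.35 (SE 0.14), the Rag GTPase RRAGD by 0.36 (SE 0.17) and the leucine sensor SESN2 by 0.05 (SE 0.10).

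Carriers of amino acids outside the named families were described in the same way. Of 23 genes, none passed, 15 were higher and 8 lower, and the median was 0.07. Of the 23, 12 were bright rows and 65.2% were higher, against 47.6% of all genes, whose median was -0.01. After quantile normalization 39.1% were lower, against 49.3% of all genes, and after median centring 34.8%, against 35.1%. After CTNS, the smallest unadjusted p belonged to the mitochondrial glutamate carrier SLC25A22, with a difference of 0.17 (SE 0.09) and separate groups, and to SLC16A10, a carrier of aromatic amino acids, with -0.13 (SE 0.08). The mitochondrial aspartate and glutamate carrier SLC25A13 differed by 0.08 (SE 0.08) and the lysosomal histidine and peptide carrier SLC15A4 by 0.19 (SE 0.12).

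**Figure D5:**
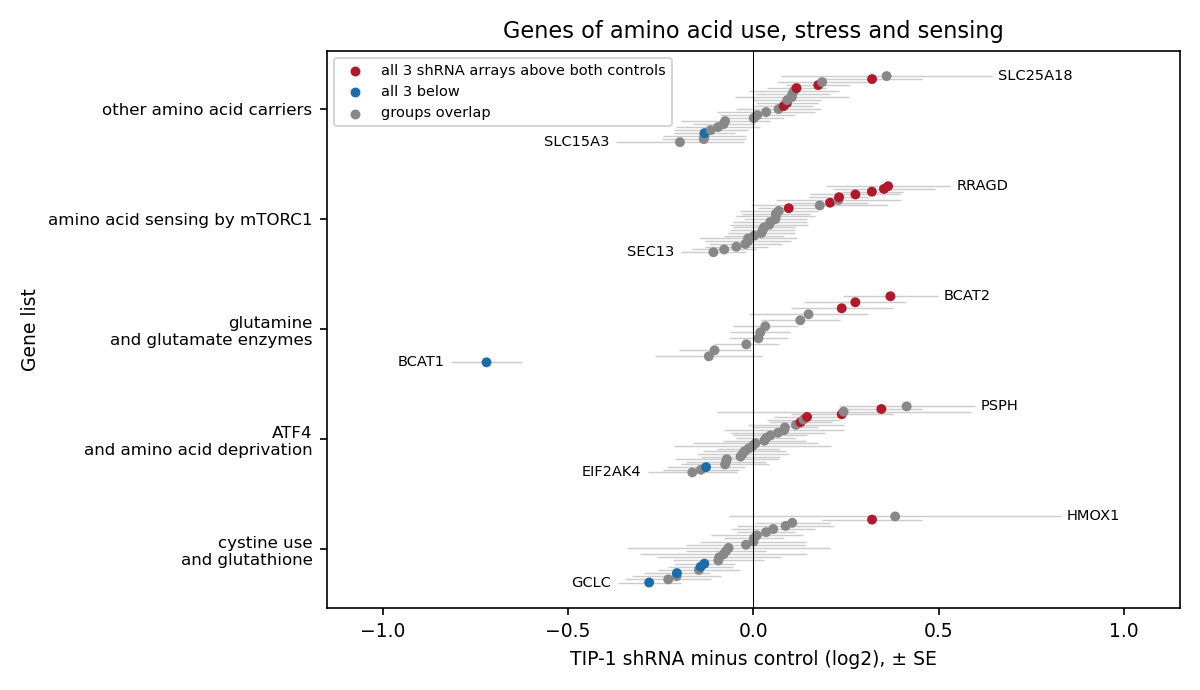
Difference of each gene, TIP-1 shRNA minus control in log2 units with limma's SE (horizontal axis), for 5 gene lists (vertical axis), coloured by whether the groups were separate. BCAT1 at -0.72 is the gene farthest from 0, and in the mTORC1 list 7 genes have all TIP-1 shRNA arrays above both controls.

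Promoter windows were searched for the core letters that ATF4 and NRF2 elements are known by, because both factors act on several of these transporters. RefSeq windows of assembly GRCh38.p14, from 250 bases before to 50 after a gene's start, were found for 46 of the 59 genes, 68 windows in all. SLC7A11 was not among them. The letters TGATGNAA, on either strand, were in 6 of the 68 windows, or 8.82%, against 3.62% of all 35116 windows. The letters TGACNNNGC were in 7 windows, or 10.3%, against 13.3%. The matches below were chosen after they were found, from transporters described above, and show the matched letters in capitals on the gene's strand, with up to 16 bases on each side.
SLC3A2, chr11:62881646-62881686, plus strand, TGACNNNGC: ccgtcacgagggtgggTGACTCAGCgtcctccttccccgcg
SLC7A1, chr13:29595749-29595789, minus strand, TGACNNNGC: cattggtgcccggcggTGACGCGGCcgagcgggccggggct
SLC1A5, chr19:46784888-46784927, minus strand, TGATGNAA: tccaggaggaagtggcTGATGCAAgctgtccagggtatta
SLC1A3, chr5:36596352-36596391, plus strand, TGATGNAA: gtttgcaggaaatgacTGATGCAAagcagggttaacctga
A match is a run of letters and not a measured site. The first base of the match lay 37 bases before the start in SLC3A2, 85 in SLC7A1, 97 in SLC1A5 and 220 in SLC1A3, and SLC3A2, SLC1A5 and SLC1A3 have other annotated starts too. Whether the matches fall in an exon or an intron of other transcripts was not determined. The log2 differences of these 4 genes, 0.07, 0.21, -0.10 and -0.23, did not pass the test.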

How the data were processed

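Total RNA of 5 D54 samples was measured on Affymetrix whole-transcript arrays, 1 per sample. The authors deposited log2 signals per transcript cluster, processed with the Affymetrix Exon Array Computational Tool per the series' design text. Background correction and normalization are, in the sources used here, not given. The values, whose range is that of log2 signals, were used as deposited. The design text names the exon array, but row identifiers were those of the gene-level array's annotation. Arrays have no read depth, and their number limits the precision.

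All 33297 rows went into 1 two-sided fit by limma 3.58.1 (lmFit, then eBayes; R 4.3.3) of TIP-1 shRNA minus control shRNA, with Benjamini-Hochberg adjustment over all rows, a threshold of 0.05 and 95% intervals. The script was tested on simulated data. Rows with 1 symbol (19460) named 18417 genes through the brightest row of each. The transporters and lists were chosen with earlier results of these data known. Named in full were transporters with separate groups and a difference of at least 0.3, the 12 with the smallest p, the 10 brightest and a fixed list of textbook carriers. Of each other list, the 3 genes with the smallest p and some with a stated role were named. Alternatives were quantile normalization, median centring, bright rows only, a trended robust fit, array weights, a replicate block, each array left out, and the mean of all rows of a gene. Promoter letters were searched on both strands of RefSeq windows (GRCh38.p14).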

Additional observations from a re-analysis of the deposited data

How the results depend on the processing

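No transporter passed the test under any alternative run (limma), and SLC7A11 was lower in each, from -1.32 to -0.85. The median over the transporters, -0.042, was -0.011 with quantile normalization, 0.019 with median centring, 0.070 among bright rows only, and from -0.106 to 0.010 with single arrays removed. The number with separate groups, 21 of 59, was 8 of 26 among bright rows only and from 24 to 40 with single arrays removed. The highest were 40 of 59 without control 1 and 37 without control 2, where 57.9% and 51% of all genes were separate, against 33.6% to 43% of genes without 1 of the shRNA arrays. Fewer arrays then have to be separate, and the lone control is then assumed to vary like the other group. TAX1BP3 lay between -2.495 and -2.37 with single arrays removed, 3 of which ended its call. Arrays sharing a number in the titles deviated together at r = 0.0486 and -0.0529, and no pairing was read from them. The replicate block leaves shRNA 3 without a partner, so its differences repeat those found without shRNA 3 and are no separate estimate. It gave a median of -0.025 and -0.85 for SLC7A11, raised the rows called from 1 to 15 and called no transporter.

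Of 731 values of named genes under alternatives, 701 kept direction and side of the threshold and 30 changed sign. The settings reuse the same arrays, none of these genes passed in the main fit, and several were named for their values here. The tally is therefore no measure of stability. With quantile normalization SLC7A6 was -0.011 and SLC1A2 0.0035. With median centring SLC6A6 was 0.0025, SLC1A2 0.0265 and SLC6A14 0.056. With array weights SLC7A6 was -0.0029, SLC6A14 0.063, GCLM 0.030 and SESN2 -0.021. With the replicate block SLC1A5 was 0.0046, SLC7A6 -0.0059, SLC6A14 0.025, GCLM 0.067, GLUL -0.0086 and SESN2 -0.019. Leaving out 1 array gave ranges that crossed 0 for SLC7A5 (-0.036 to 0.21), SLC7A6 (-0.053 to 0.089), SLC43A1 (-0.022 to 0.39), SLC1A1 (-0.37 to 0.089), SLC1A2 (-0.16 to 0.095), SLC1A5 (-0.18 to 0.0046), SLC6A6 (-0.17 to 0.054), SLC6A14 (-0.080 to 0.045), GCLM (-0.18 to 0.067), CHAC1 (-0.19 to 0.043), GLUL (-0.0086 to 0.23) and SESN2 (-0.019 to 0.10). The cause of these changes was not tested. With 2 arrays against 3, differences of the size most transporters showed could not be told from the spread between arrays.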
